A study of Rattus norvegicus with 4 samples.

Results

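Transcript levels of the hepatocyte nuclear factors Hnf4a and Foxa1 and of 6 factors of endocrine differentiation, Insm1, Myt1, St18, Pax4, Glis3 and Neurog3, were compared between monolayer and 3D-bioprinted INS-1 832/3 cells. The 8 genes were taken by name, and transcript values were summed under each symbol. Of the 8, 7 were matched among 23360 gene symbols, and Insm1 was matched to no row and was not analysed here. INS-1 832/3 is a rat insulinoma line that secretes insulin, carries a human insulin gene and is kept under Geneticin selection, so every sample is the same tumor-derived line. The 2D monolayer group held 2 standard cultures. The 3D bioprinted group held 2 cultures printed in GelXA LAMININK 411, a gelatin-based hydrogel containing laminin-411. All 4 cultures received the same RPMI-1640 medium and were harvested on day 5 at passage 3 as biological replicates. The comparison asks whether embedding in the printed hydrogel was accompanied by a change in the factors that establish and keep endocrine identity. It cannot separate the printing, the crosslinking of the gel with light, the gel itself and the third dimension, which the 3D cultures share.

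Hepatocyte nuclear factors are transcription factors first described in liver that also act in the pancreas. HNF4A is a nuclear receptor and FOXA1 a forkhead factor that can open closed chromatin, and mutations of the human HNF4A gene cause a monogenic form of diabetes. NEUROG3 is the transient basic helix-loop-helix factor that commits pancreatic progenitors to the endocrine lineage, and the zinc-finger factors INSM1, MYT1 and ST18 and the paired-homeobox factor PAX4 act after it. GLIS3 is a Krüppel-like zinc-finger factor that is also needed for insulin gene transcription in the mature beta cell.

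The files give mRNA levels as TPM, a measure of transcript abundance that corrects for transcript length and sums to 1000000 in each sample. TPM carry no read counts from which the counting error of a value could be computed, and an abundance of 0 is a listed estimate without a detection limit. Between 19355 and 19959 of 31201 transcripts were above 0 in a sample. The identity of the cells was checked with marker lists. Of 9 beta-cell markers matched, 8 were above 1 TPM, and their summed level was 139562 and 151421 TPM in the monolayer cultures against 150142 and 161718 TPM in the 3D cultures. That sum is mostly Ins1, an insulin gene that did not pass (log2 fold change 0.099, limma adjusted p = 0.680), and 2 beta-cell markers passed in opposite directions. Ins2, the other rat insulin gene, fell from 13237 and 13340 TPM to 8957 and 9326 TPM (log2 fold change -0.58, limma adjusted p = 0.0095), and Slc2a2, the glucose transporter gene, rose (log2 fold change 0.39, limma adjusted p = 0.0075). Of 6 alpha-cell markers, Irx1, Irx2 and Ttr were listed at 0 in every culture. The alpha-cell sum was 53.7 and 85.3 TPM in the monolayer cultures against 135 and 165 TPM in the 3D cultures, most of it from Gcg, the glucagon gene, which rose from 41.9 and 73.8 TPM to 124 and 155 TPM (log2 fold change 1.26, limma adjusted p = 0.0217). Delta-cell and hepatocyte markers stayed below 1 TPM throughout. Of the acinar, the duct and the fibroblast and endothelial lists, 1 gene each exceeded 1 TPM, namely Ctrb1, Krt7 and Kdr. The part of the Gcg signal in the results below was not tested, and in RNA from whole cultures fewer cells expressing a gene and less RNA per cell cannot be told apart.

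The starts of transcription of 5 of the 8 genes were held in a table of RefSeq promoter windows on the GRCr8 build, each running from 250 bases before to 50 bases after an annotated start. The windows of Hnf4a, Myt1 and Neurog3 are shown because they show the letters that factors of the same network are known to recognise. Hnf4a is known to be transcribed from a liver-type promoter and from a promoter farther upstream that is used mainly in islets, and its windows lie 35616 bases apart. The upstream one, at chr3:172605970-172606269, is given 5′ to 3′ on the plus strand with motif matches in capitals.
Hnf4a upstream: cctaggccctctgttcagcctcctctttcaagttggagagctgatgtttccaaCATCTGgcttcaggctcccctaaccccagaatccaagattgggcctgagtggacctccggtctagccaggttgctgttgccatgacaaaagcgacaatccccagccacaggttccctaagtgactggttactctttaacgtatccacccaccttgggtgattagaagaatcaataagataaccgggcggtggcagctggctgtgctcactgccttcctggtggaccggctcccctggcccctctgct
The windows of Myt1 (chr3:189296804-189297103) and Neurog3 (chr20:30622283-30622582), also on the plus strand and with matches in capitals, follow.
Myt1: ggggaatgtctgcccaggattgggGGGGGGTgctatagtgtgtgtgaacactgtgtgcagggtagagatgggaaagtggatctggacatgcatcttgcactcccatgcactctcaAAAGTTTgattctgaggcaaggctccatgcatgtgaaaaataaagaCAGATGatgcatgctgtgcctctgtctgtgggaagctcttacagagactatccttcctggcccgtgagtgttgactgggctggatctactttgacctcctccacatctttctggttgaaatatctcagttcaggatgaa
Neurog3: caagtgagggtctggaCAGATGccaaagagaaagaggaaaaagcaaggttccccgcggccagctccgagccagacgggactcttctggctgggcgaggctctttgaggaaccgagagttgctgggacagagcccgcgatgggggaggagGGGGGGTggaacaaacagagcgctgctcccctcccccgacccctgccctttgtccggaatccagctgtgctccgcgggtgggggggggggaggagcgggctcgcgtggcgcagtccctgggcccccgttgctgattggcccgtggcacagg
On both strands, 5 motifs were searched, and none of their matches overlapped in the windows shown. The Myt1 window held AAAGTTT from base -135 to base -129, with the first transcribed base counted as 0, the core recognised by MYT1-type zinc fingers and present in 4.76% of the 33469 windows of the table. CAGATG, an E-box bound by neurogenic helix-loop-helix factors and present in 16.6% of windows, occurred in the upstream Hnf4a, the Myt1 and the Neurog3 windows and in 1 of the 4 Glis3 windows. GGGGGGT, part of the G-rich site of GLIS factors and present in 4.62% of windows, occurred in the Myt1 and Neurog3 windows. The FOXA core TGTTTAC and the HNF4 core CAAAGTC had no match in any of the member windows, against 3.78% and 4.61% of all windows. The downstream Hnf4a window, the single Pax4 window and 3 of the 4 Glis3 windows held none of the motifs. These matches are of letters alone, and binding was not measured.

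The factors covered a wide range of levels in the same cells. St18 was the most abundant in every culture, and its mean TPM lay above that of 86.1% of the 11960 genes with a mean of at least 1 TPM, the set that was tested. Glis3, Hnf4a and Myt1 followed, above 60.6%, 53.4% and 49.7% of these genes in mean TPM. Glis3 was higher than Hnf4a in 3 of the 4 cultures but not in monolayer replicate 2, so this pair cannot be ordered in monolayer. Foxa1, with a mean above only 5.64% of the genes tested, was barely over the filter. Pax4 and Neurog3 lay under it and received no test.

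**Figure D1:**
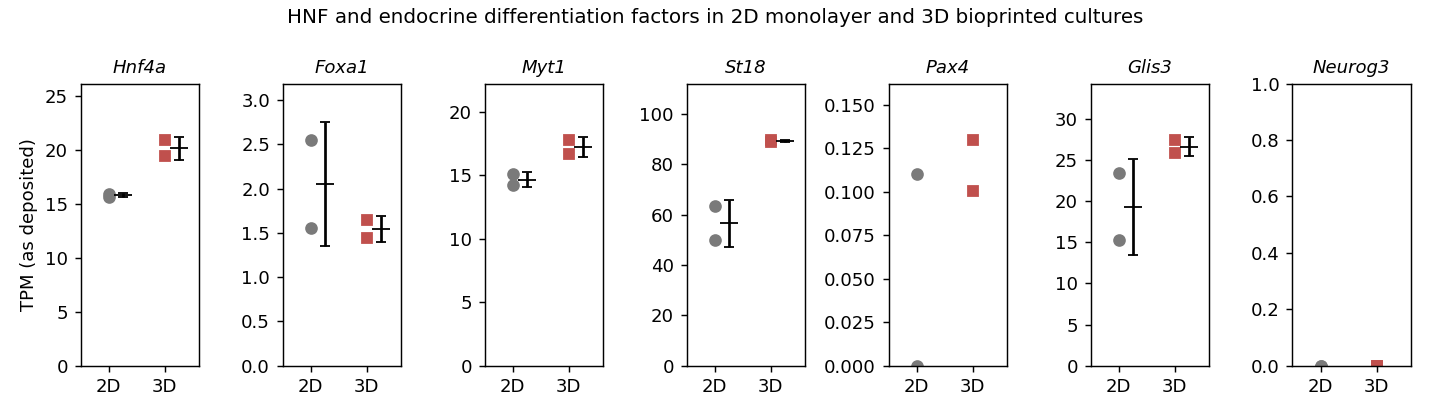
TPM as deposited (vertical axes, from 0, with a separate scale for each gene) in the 2D monolayer (circles) and 3D bioprinted (squares) cultures, with 1 point per culture and, for the genes tested, the mean and SD (n = 2) beside them. St18, Hnf4a, Glis3 and Myt1 have both 3D cultures above both monolayer cultures, Foxa1 overlaps, and Neurog3 is at 0 in all 4.

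The groups were compared with limma on log2(TPM + 1) over all 11960 genes, after scaling between samples, with Benjamini-Hochberg adjustment for the number of genes. The added 1 TPM makes the fold change of weakly expressed genes smaller than the ratio of their TPM. A 2 against 2 design cannot go below a two-sided p of 0.33 in an exact permutation test, so the p-values lean on the variance limma estimates from many genes and measure only the spread between these cultures. Of the 5 factors tested, 2 rose in 3D culture, St18 and Hnf4a, and none fell at the 0.05 threshold. Of the 11960 genes, 38.0% passed in either direction, 18.5% higher and 19.5% lower, so that 2 of 5 is near the share of the whole transcriptome. In 4 of the 5 the cultures of the groups did not overlap in TPM as deposited, which held for 74.2% of all genes tested, and on scaled TPM all 5 did not overlap, against 75.5%.

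St18, also known as MYT3, encodes a zinc-finger factor of the MYT family. It had 63.3 and 50.1 TPM in the monolayer cultures against 89.7 and 89.0 TPM in the 3D cultures. Both 3D cultures were above both monolayer cultures, and they differed from each other far less than the monolayer cultures did, the monolayer mean being 56.7 ± 9.38 TPM and the 3D mean 89.4 ± 0.523 TPM (SD, n = 2 each). The log2 fold change was 0.61 with a standard error of 0.094, a 1.53-fold rise (limma, adjusted p = 0.0087). With 3D replicate 1 or 3D replicate 2 left out, the adjusted p was 0.0882 and 0.0672, and the log2 fold change was 0.60 and 0.63.

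The related factor Myt1 acts in the same program of endocrine differentiation. It had 15.1 and 14.2 TPM in the monolayer cultures against 16.7 and 17.8 TPM in the 3D cultures. Although the groups did not overlap, the log2 fold change of 0.18 (standard error 0.065) did not pass, with an adjusted p of 0.0782 in limma and a 95% interval from 0.016 to 0.34. The neuronal paralog Myt1l was lower than either, at 2.05 and 1.49 TPM in the monolayer cultures against 1.61 and 1.91 TPM in the 3D cultures. Within the MYT family, St18 took 78.7% and 76.1% of the summed TPM in monolayer and 83.1% and 81.9% in 3D culture. The share of Myt1 went from 18.7% and 21.6% to 15.4% and 16.4%. The shares of a family add up to its whole, so the lower Myt1 share is not a result apart from the higher St18 share. The TPM of Myt1 itself was higher in both 3D cultures. No test was run on the shares.

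Hnf4a had 15.7 and 15.9 TPM in the monolayer cultures against 20.9 and 19.4 TPM in the 3D cultures. All values of 3D culture were higher, with means of 15.8 ± 0.185 TPM (SD, n = 2) and 20.2 ± 1.07 TPM (SD, n = 2). The log2 fold change was 0.29 with a standard error of 0.076 and a 95% interval from 0.10 to 0.48, a 1.22-fold rise (limma, adjusted p = 0.0325). The call did not hold without the expression filter (adjusted p = 0.0769) or with any 1 of the 4 cultures left out (0.0571 without monolayer replicate 2 to 0.208 without 3D replicate 1). The log2 fold change stayed between 0.23 and 0.35 in these leave-one-out fits. Its paralog Hnf4g did not exceed 0.989 TPM in any culture, and Hnf4a made up between 94.1% and 97.1% of the summed TPM of the pair.

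Foxa1 had 2.55 and 1.55 TPM in the monolayer cultures against 1.45 and 1.65 TPM in the 3D cultures. The groups overlapped in TPM as deposited, since 1 monolayer culture lay between the 3D cultures. The log2 fold change of -0.27 ± 0.17 (SE, limma, adjusted p = 0.257) had a 95% interval from -0.70 to 0.16. Foxa1 was a minor member of its family, between 2.93% and 4.75% of the summed FOXA TPM. Foxa2, the paralog required for beta-cell function, took between 75.1% and 79.6%, with 40.3 and 39.7 TPM in the monolayer cultures against 39.2 and 41.3 TPM in the 3D cultures (limma, adjusted p = 0.654). Foxa3 had 10.8 and 10.1 TPM in the monolayer cultures against 8.60 and 9.21 TPM in the 3D cultures and fell, with a log2 fold change of -0.25 ± 0.072 (SE, limma, adjusted p = 0.0416). That call was kept in 4 of 12 other settings, with adjusted p from 0.038 to 0.232.

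Glis3 had 23.5 and 15.2 TPM in the monolayer cultures against 25.8 and 27.5 TPM in the 3D cultures. Both 3D cultures were higher, but the monolayer cultures differed from each other by more than the nearer of them differed from 3D culture. The log2 fold change of 0.43 had a standard error of 0.17 and did not pass (limma, adjusted p = 0.0937, 95% interval from 0.0089 to 0.85). The value varied with the monolayer culture used. Without monolayer replicate 1 the log2 fold change was 0.69 and the adjusted p in limma 0.0129, and without monolayer replicate 2 the log2 fold change was 0.17 (adjusted p = 0.131). With the replicate number as a block the call also changed (limma adjusted p = 0.0351 at the same fold change). The sample labels do not say whether same-numbered cultures were paired. Among the GLIS genes, Glis2 was the most abundant with 41.5 and 38.8 TPM in the monolayer cultures against 38.5 and 42.6 TPM in the 3D cultures, and Glis1 stayed between 2.39 and 2.99 TPM. The share of Glis3 in the family was 34.7% and 27.0% in monolayer and 38.4% and 37.9% in 3D culture.

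**Figure D2:**
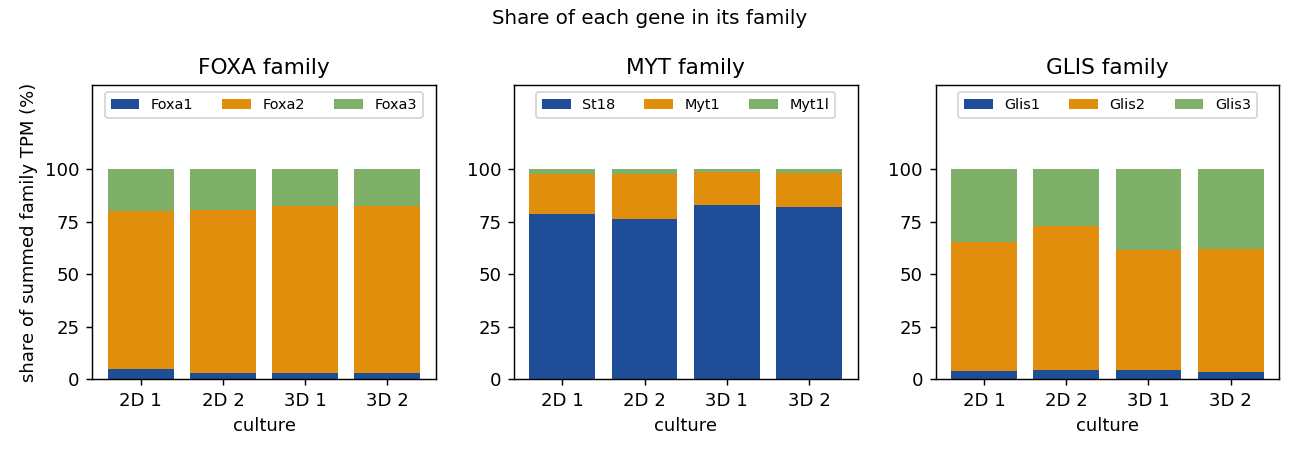
Share of the summed TPM of the FOXA, MYT and GLIS families taken by each gene (vertical axes, percent) in each monolayer (2D) and bioprinted (3D) culture. Foxa2 and St18 take at least 75.1% and 76.1% of their families in every culture, and the Glis3 share is lowest, at 27.0%, in monolayer replicate 2.

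Neurog3, the commitment factor, was listed at 0 TPM in all 4 cultures. Pax4, which favors the beta-cell over the alpha-cell fate in development, was at 0.11 and 0 TPM in the monolayer cultures against 0.10 and 0.13 TPM in the 3D cultures. Neither was tested, and at these values no difference can be read. Other genes of their families were well above them. Pax6, the paired-homeobox factor that maintains islet hormone expression, had 171 and 173 TPM in the monolayer cultures against 278 and 257 TPM in the 3D cultures, a log2 fold change of 0.59 ± 0.070 (SE, limma, adjusted p = 0.0054). The Pax6 call held in 11 of 12 other settings and ended without 3D replicate 1. In the NEUROG and NEUROD family, Neurog1 was also listed at 0, and Neurod1 took between 77.7% and 84.2% of the summed TPM. Neurod1 itself overlapped between the groups and did not pass (log2 fold change 0.051, 95% interval from -0.18 to 0.28, limma adjusted p = 0.680). Neurod2 rose from 12.5 and 13.2 TPM to 18.3 and 16.7 TPM (log2 fold change 0.38 ± 0.087, SE, and limma adjusted p = 0.0240). The Neurod2 call ended without the expression filter (adjusted p = 0.0643 in limma), without monolayer replicate 1 (0.0662) and without 3D replicate 1 or 2 (0.168 and 0.0857).

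Hnf4a and St18 are each listed with 3 transcripts, and the other 5 matched factors with 1. Tested per transcript, 2 of the 9 transcripts over 1 TPM passed, both of St18, against 23.5% of the 15020 transcripts tested. The main St18 transcript ENSRNOT00000091649.1 had 47.4 and 41.5 TPM in the monolayer cultures against 63.2 and 62.8 TPM in the 3D cultures, a log2 fold change of 0.43 ± 0.062 (SE, limma, adjusted p = 0.0209). ENSRNOT00000059625.3 had 12.1 and 7.0 TPM in the monolayer cultures against 21.4 and 22.3 TPM in the 3D cultures, a log2 fold change of 1.10 ± 0.22 (SE, limma, adjusted p = 0.0342). Both transcripts were higher in both 3D cultures, and the share of the second in the gene went from 19.0% and 14.0% to 23.9% and 25.1%. The remaining St18 transcript, ENSRNOT00000092104.1, had 3.85 and 1.54 TPM in the monolayer cultures against 5.08 and 3.89 TPM in the 3D cultures, and did not pass (limma, adjusted p = 0.243).

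For Hnf4a no single transcript passed. The main one, ENSRNOT00000078703.1, had 13.1 and 12.8 TPM in the monolayer cultures against 15.6 and 13.4 TPM in the 3D cultures, a log2 fold change of 0.090 (limma, adjusted p = 0.519). ENSRNOT00000011978.4 had 1.30 and 0.874 TPM in the monolayer cultures against 3.60 and 1.93 TPM in the 3D cultures, a log2 fold change of 0.79 ± 0.27 (SE, limma, adjusted p = 0.102). ENSRNOT00000089893.1 had 1.22 and 2.22 TPM in the monolayer cultures against 1.68 and 4.02 TPM in the 3D cultures, and its groups overlapped. The share of the main transcript went from 83.9% and 80.6% in monolayer to 74.7% and 69.3% in 3D culture. The minor transcripts exchanged rank between the 3D cultures and also between the monolayer cultures. Which transcript belongs to which Hnf4a start was not determined here.

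**Figure D3:**
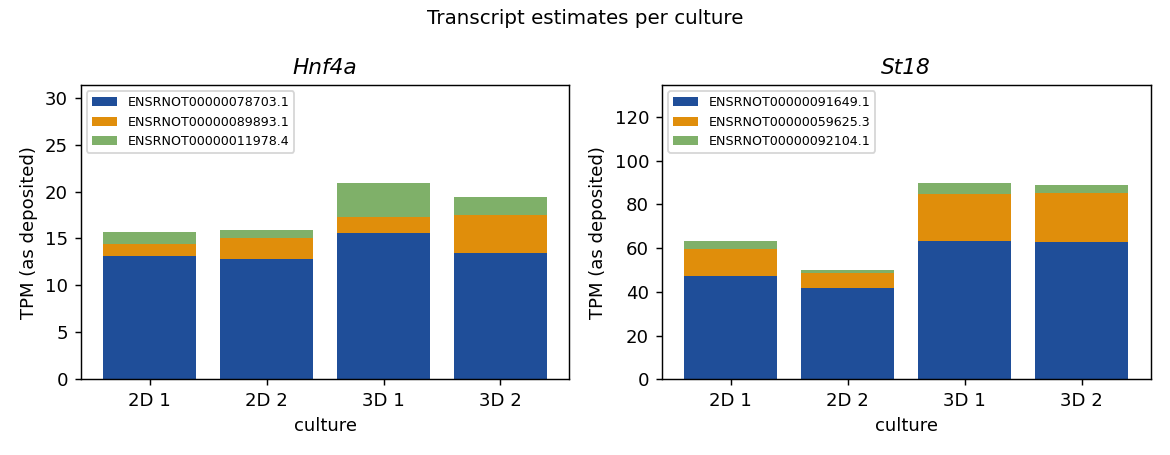
TPM as deposited (vertical axes, from 0) of each transcript of Hnf4a (left) and St18 (right), stacked for each monolayer (2D) and bioprinted (3D) culture. The orange St18 segment, ENSRNOT00000059625.3, goes from 12.1 and 7.0 TPM in monolayer to 21.4 and 22.3 TPM in 3D culture, and the upper Hnf4a segments differ between cultures of the same group.

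The genes around these factors were described with 5 lists, each given by its count and median beside the whole transcriptome, whose median log2 fold change was -0.0031 and of which 38.0% passed. Of the HNF and FOXA family with Onecut genes, 6 of 9 matched genes were tested, 1 rose (Hnf4a) and 1 fell (Foxa3), with a median log2 fold change of 0.13. Of 22 endocrine differentiation factors matched, 16 were tested, 3 rose and 1 fell, with a median of 0.045. The rises were those of St18, Pax6 and Isl1, a LIM-homeodomain factor of islet development that went from 49.2 and 53.5 TPM to 64.2 and 69.2 TPM (log2 fold change 0.33, limma adjusted p = 0.0284). The Isl1 call ended without the expression filter (adjusted p = 0.0718 in limma), without monolayer replicate 1 (0.0542) and without 3D replicate 1 or 2 (0.124 and 0.163). The fall was that of Fev, an ETS factor of endocrine precursors and serotonergic cells, from 8.51 and 10.6 TPM to 5.60 and 6.13 TPM (log2 fold change -0.65 ± 0.13, SE, and limma adjusted p = 0.0163). The Fev call held in 10 of 12 other settings and ended without 3D replicate 1 or 2. Of 13 paralogs of the 8 factors, 8 were tested, 2 rose (Pax6 and Neurod2) and 1 fell (Foxa3), with a median of 0.0062.

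**Figure D4:**
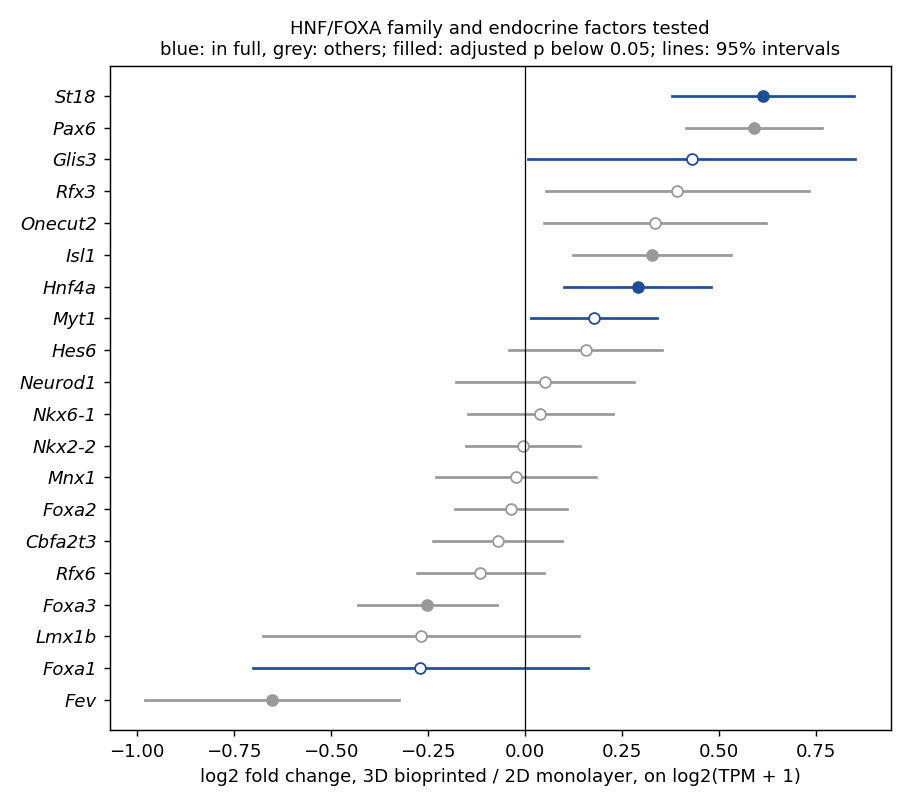
Log2 fold change of 3D-bioprinted over monolayer culture (horizontal axis, on log2(TPM + 1)) with 95% intervals from limma for genes of the HNF and FOXA family and of the endocrine differentiation factors, in blue for the 5 factors described in full and in grey for the others. Filled points, with an adjusted p below 0.05, are St18, Pax6, Isl1 and Hnf4a above 0 and Foxa3 and Fev below 0.

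Among progenitor factors and repressors of Neurog3, 8 of the 13 genes were under the filter and 3 of the 5 tested rose, with a median log2 fold change of 0.36. Hes1, a Notch effector that represses Neurog3 in progenitors, had 2.64 and 2.91 TPM in the monolayer cultures against 12.5 and 9.89 TPM in the 3D cultures, a log2 fold change of 1.64 ± 0.13 (SE, limma, adjusted p = 0.0037). Prox1, a homeobox factor of early pancreatic cells, rose from 2.80 and 2.44 TPM to 4.65 and 4.49 TPM (log2 fold change 0.59, limma adjusted p = 0.010). Gata4, a zinc-finger factor of the early pancreas, rose from 11 and 9.83 TPM to 14.1 and 14.0 TPM (log2 fold change 0.36, limma adjusted p = 0.0152). The call of Hes1 held in 11 of 12 other settings, that of Prox1 in 9 of 11 and that of Gata4 in 10 of 12. Each ended without 3D replicate 1, and those of Prox1 and Gata4 also without 3D replicate 2. Neurog3 itself was listed at 0 in both groups.

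Of genes known to be activated by NEUROG3, 10 of 12 matched genes were tested, 1 rose and 2 fell, with a median log2 fold change of -0.038. Chgb, a granin of secretory granules, rose from 2487 and 3185 TPM to 4625 and 5469 TPM (log2 fold change 0.79 ± 0.16, SE, and limma adjusted p = 0.0168). That call held in 9 of 12 other settings and ended without the expression filter (limma adjusted p = 0.0599) and without 3D replicate 1 or 2. The log2 fold change was 0.90 without 3D replicate 1 and 0.68 without 3D replicate 2. The falls were those of Fev and of Cdkn1a, the cell-cycle inhibitor p21, with log2 fold changes of -0.65 and -1.29. Over the 5 lists, 12 of 34 distinct genes tested had an adjusted p below 0.05, 9 of them higher. Of all 11960 genes tested, 38.0% passed, 18.5% higher and 19.5% lower. Without 3D replicate 1 limma called 0 of the 34 (10 at an unadjusted p below 0.05), and without 3D replicate 2 it called 3, while over all genes these fits called 37 and 633.

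**Figure D5:**
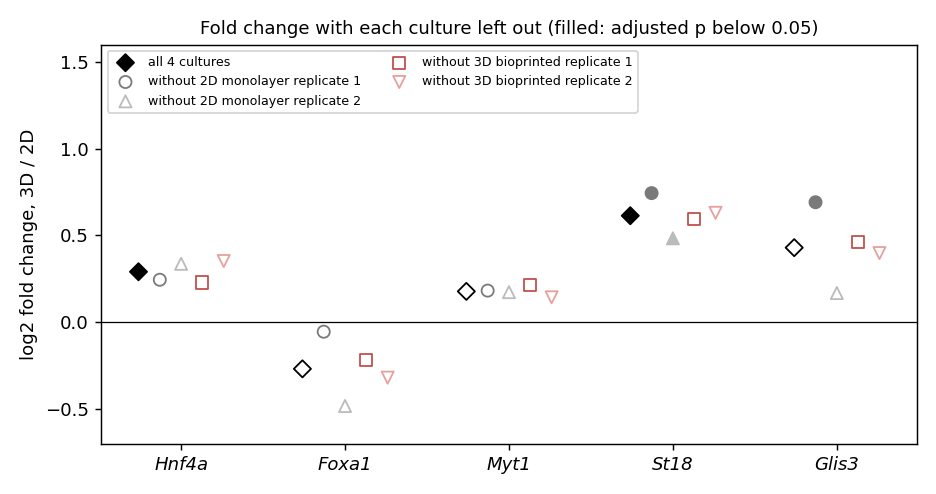
Log2 fold change of 3D-bioprinted over monolayer culture (vertical axis) for the 5 factors tested, with all 4 cultures and with each culture left out in turn, filled where limma gave an adjusted p below 0.05. Signs do not change, Glis3 ranges from 0.17 to 0.69 and Foxa1 from -0.48 to -0.055, depending on the monolayer culture left out.

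The genes with the most similar pattern were found by the Euclidean distance of centred log2(TPM + 1) over the 4 samples, among genes with a mean of at least 10 TPM. With only 4 samples such neighbors are a description. The nearest to St18 were Bdp1 and Cdk12, at distances of 0.036 and 0.044 on the log2 scale, where St18 itself spanned 0.76. Those of Hnf4a were Rem2 and Psap (0.019 and 0.021), those of Myt1 Tmem63c and Brd8 (0.0084 and 0.011) and those of Glis3 Tasor2 and Hipk3 (0.040 and 0.044). The nearest to Foxa1 were Faahl and Edem1 at 0.069 and 0.079. Like Foxa1 they were highest in monolayer replicate 1, with 28.7 TPM for Faahl against 20.5 to 22.0 TPM in the other cultures. Foxa1 had 2.55 TPM there against 1.45 to 1.65 TPM. At that level the added 1 TPM shrinks differences more than in genes of at least 10 TPM, so the TPM ratios of these neighbors can differ from those of Foxa1.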

How the data were processed

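Messenger RNA of 4 INS-1 832/3 cultures, 2 in monolayer and 2 bioprinted, was sequenced as 75-base single-end reads of stranded libraries. The submitters' processing notes name FastQC 0.11.8, Salmon 1.2 and rn4, and the methods add the human insulin gene to the reference. The deposited values are TPM per transcript, which the authors obtained from Salmon, written with decimal commas. Each sample summed to 1000000, and between any 2 samples 0 transcripts above 0 had the same value.

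TPM were summed per symbol. The filter was a mean of 1 TPM or more. Scaling used the unweighted trimmed mean of M values with 30% of the M and 5% of the A values removed from either tail (factors from 0.960 to 1.02). The test on log2(TPM + 1) was that of limma 3.58.1 in R 4.3.3 (empirical Bayes with an intensity trend, no block), with Benjamini-Hochberg adjustment. Transcripts were tested likewise. The study's own test, DESeq2, was not run because TPM are not counts. The steps were run on simulated TPM with known changes in few genes, which checks the code and not the share of false calls in these data. Groups and replicate numbers came from the sample labels. The 8 genes, the lists and the motifs were chosen with earlier results of these data known. From each list, the 3 other genes with the smallest p among those called were named or, where fewer were called, the most abundant of those not called. Some results that the rule would name are not reported here. The HNF and FOXA, endocrine and other lists were matched by symbol or RefSeq synonym, and promoter windows were those of RefSeq on GRCr8. Alternatives were the scaling, filter, pseudocount, replicate block, empirical Bayes options, a threshold of 0.01 and each culture left out. TPM give no depth, so precision is that of 2 cultures per group.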

Additional observations from a re-analysis of the deposited data

How the results depend on the processing

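St18 kept its direction in all 12 other settings and passed in 10 of them, and Hnf4a kept its direction in 12 and passed in 7. Myt1 and Foxa1 passed in none, with adjusted p from 0.0523 to 0.338 and from 0.0617 to 0.764 (Foxa1 had no value at a minimum of 5 TPM). Without the expression filter the log2 fold change of Hnf4a was 0.26 (limma adjusted p = 0.0769). In that setting 7 of 49 genes of the lists and 1 of 6 factors were called, beside 3739 of 16749 genes over the whole table. With the filter the counts were 12 of 34, 2 of 5 and 4541 of 11960. At an adjusted p below 0.01, 1 of the factors was called, and 1418 genes passed over the whole table. The number of factors called ran from 0 to 2, and that of all genes from 37 to 4456, with each culture left out in turn. In these fits the genes of the lists called ran from 0 to 10 (from 0 to 5 for endocrine factors, 0 to 3 for progenitor factors and for NEUROG3 targets, 0 to 2 for paralogs and 0 throughout for the HNF and FOXA family) and the log2 fold changes from 0.23 to 0.35 for Hnf4a, from 0.48 to 0.74 for St18 and from 0.17 to 0.69 for Glis3. A lone culture is assumed there to vary like the other group. The sample labels do not say whether same-numbered cultures were paired. Their deviations from the group means had a correlation of -0.0060 over 11960 genes. With the replicate block 4814 genes passed in place of 4541 and Glis3 passed, at the same log2 fold change of 0.43 (adjusted p = 0.0351). Without scaling between samples the log2 fold change of Foxa2 turned to 0.0077. The 2 St18 transcripts called passed with a pseudocount of 0.1 and with the replicate block, and no other transcript did. Leaving out a culture also leaves fewer samples, and the causes of these shifts were not tested.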
